A study of Homo sapiens with 9 samples.

Results

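The genes described here encode the machinery that moves proteins and RNA between nucleus and cytoplasm: the nucleoporins of the nuclear pore complex, the importins, exportins and transportins that carry cargo through it, and the proteins of the RAN cycle. They were chosen by gene symbol alone (the NUP, IPO, KPNA, KPNB, XPO and TNPO names plus RAN, RANBP1, RANBP2, RANGAP1, RCC1, NUTF2, CSE1L, TPR, SEH1L and AAAS), which gave 55 members among the 25084 genes of the deposited table. LAN5 cells, a long-established neuroblastoma line that carries extra copies of MYCN, gave all 9 libraries. They were grown in RPMI-1640 with fetal calf serum, and total RNA was sequenced 72 h after siRNA had been delivered by Nucleofector electroporation. Each of the 3 groups held 3 libraries: one was given the control siRNA siCTR, another siMYCN_2 (here siMYCN), and the last siHAND2_3 (here siHAND2). HAND2 is a transcription factor of the sympathetic lineage, from which neuroblastoma arises. Each target was thus addressed with 1 siRNA, every group was electroporated, and nothing in the labels says whether the libraries of a group came from separate cultures, so the p-values measure the spread between these libraries only.

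Nuclear pores are ring-shaped assemblies of nucleoporins, built from a Y-shaped outer scaffold, an inner ring, a membrane ring, a channel filled with phenylalanine-glycine repeats, filaments on the cytoplasmic face and a basket on the nuclear face. Transport receptors of the importin beta family bind cargo, cross the channel and release or pick up cargo according to the nucleotide bound to the small GTPase RAN, which is loaded with GTP in the nucleus by RCC1 and made to hydrolyse it in the cytoplasm with RANGAP1 and RANBP1. Importin alpha proteins (KPNA) join cargo with a classical nuclear localisation signal to KPNB1, and CSE1L returns them to the cytoplasm. MYC family proteins, to which MYCN belongs, bind DNA at E-boxes and are known for raising the expression of genes for ribosome production and growth, among which transport factors such as RAN are often counted.

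Because MYC proteins bind the canonical E-box CACGTG, a palindrome that reads the same on both strands, the promoters of the members were searched for these letters. RefSeq windows of 300 bases (GRCh38.p14, 250 bases before and 50 after a gene's start) were found for 49 of the 55 members, 64 windows in all because several genes have more than 1 start. The motif stood in 9 of the 64 windows (14.1%), each of a different gene, against 7.26% of all 35116 windows in the table and 9.43% of the 15221 windows of genes that were tested for expression. The 9 genes were IPO4, IPO7, KPNA3, NUP50, NUP188, RAN, RCC1, TNPO2 and XPO1. Among members with a window, it was present in 4 of the 17 that were lower in siMYCN, 1 of the 2 that were higher and 4 of the 29 that were not called. The E-box variant CATCTG, searched on both strands (it cannot overlap CACGTG), stood in 2 member windows (3.12%, NUP58 and RANGAP1) against 14.7% of all windows and 10.2% of those of tested genes. A match is only a description of these letters. The windows of the 4 lower genes and of TNPO2, which moved the other way, are shown 5′ to 3′ along the gene's strand, with CACGTG in capitals.
RAN, chr12:130871816-130872115, plus strand: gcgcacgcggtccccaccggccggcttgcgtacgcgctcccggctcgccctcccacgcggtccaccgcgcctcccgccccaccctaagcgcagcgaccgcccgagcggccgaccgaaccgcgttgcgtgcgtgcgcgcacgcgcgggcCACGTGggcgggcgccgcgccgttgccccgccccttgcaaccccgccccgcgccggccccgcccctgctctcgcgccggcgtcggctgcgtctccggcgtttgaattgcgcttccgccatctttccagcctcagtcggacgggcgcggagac
IPO4, chr14:24188767-24189066, minus strand: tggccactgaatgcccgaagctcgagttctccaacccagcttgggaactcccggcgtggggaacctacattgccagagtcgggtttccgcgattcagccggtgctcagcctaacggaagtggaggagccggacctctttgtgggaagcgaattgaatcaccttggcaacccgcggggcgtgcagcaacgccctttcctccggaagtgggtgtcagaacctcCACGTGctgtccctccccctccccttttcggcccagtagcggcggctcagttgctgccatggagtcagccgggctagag
IPO7, chr11:9384402-9384701, plus strand: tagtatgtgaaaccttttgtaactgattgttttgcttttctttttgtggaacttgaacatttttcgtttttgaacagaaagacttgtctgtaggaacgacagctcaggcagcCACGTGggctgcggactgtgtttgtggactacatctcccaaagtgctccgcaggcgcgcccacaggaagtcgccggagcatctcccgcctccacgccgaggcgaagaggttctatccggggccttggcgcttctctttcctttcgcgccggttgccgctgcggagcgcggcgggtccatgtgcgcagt
RCC1, chr1:28517976-28518275, plus strand: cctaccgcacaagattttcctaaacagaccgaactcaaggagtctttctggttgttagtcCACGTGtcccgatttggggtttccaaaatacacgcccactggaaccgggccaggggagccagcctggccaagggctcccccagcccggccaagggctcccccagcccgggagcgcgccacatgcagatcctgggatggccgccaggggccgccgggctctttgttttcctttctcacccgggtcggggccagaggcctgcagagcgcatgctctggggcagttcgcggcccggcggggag
TNPO2, chr19:12723883-12724182, minus strand: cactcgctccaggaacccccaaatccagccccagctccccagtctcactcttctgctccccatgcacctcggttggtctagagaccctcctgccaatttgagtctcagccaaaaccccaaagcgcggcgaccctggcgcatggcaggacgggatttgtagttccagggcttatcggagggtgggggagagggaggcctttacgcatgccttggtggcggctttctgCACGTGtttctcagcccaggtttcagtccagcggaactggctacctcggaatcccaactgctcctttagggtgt
Counted from the gene's start, the E-box began at base -102 in RAN, -29 in IPO4, -138 in IPO7, -190 in this window of RCC1 (its other window held none) and -24 in TNPO2.

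Levels are given in CPM, a gene's share of the library's assigned reads on a common scale. The smallest step between low CPM values put the depth at 21.1 to 32.7 M assigned reads per library. The targeted transcripts went with their labels: MYCN was 1842 ± 54.2 CPM in siCTR and fell by 30.0% in siMYCN, and HAND2 was 501 ± 13.7 CPM and fell by 45.8% in siHAND2 (mean ± SD, n = 3 libraries). In siHAND2, MYCN fell by 50.4% and was lower than in siMYCN itself (-0.50, adjusted p = 6.21e-07 for siHAND2 minus siMYCN on the log2(CPM + 1) scale, limma), so neither comparison leaves MYCN at its control level. HAND2 rose by 13.9% in siMYCN. Of 6 neuroblastoma markers all were tested, and their summed level was 1039 to 1155 CPM in siCTR, 1454 to 1535 in siMYCN and 1064 to 1199 in siHAND2, with CHGA, which was not called in either knockdown, at 373 ± 16.1 CPM and TH at 2.95 ± 0.363 CPM in siCTR. Against siCTR, 5 of the 6 rose in siMYCN (STMN2, CHGB, SYP, DBH and TH). Over all genes tested, 24.5% were higher and 11.4% lower in siMYCN, and 18.1% higher and 11.8% lower in siHAND2. In siHAND2 the markers split: STMN2 rose by 94.3%, while DBH fell by 50.6% and TH fell by 51.4%. Of 5 leukocyte and endothelial markers 4 averaged under 1 CPM in siCTR, and the sum of all 5 was at most 2.18 CPM in any library. Of 6 fibroblast markers 5 were tested, and 4 rose in siMYCN and 5 in siHAND2, while COL1A1 averaged under 1 CPM in every group. The sum of the 6 was 101 to 107 CPM in siCTR, 124 to 132 in siMYCN and 252 to 289 in siHAND2. Most of it was PDGFRB, at 89.8 ± 3.07 CPM in siCTR, 98.8 ± 5.18 in siMYCN (not called, adjusted p = 0.0913, limma) and 179 ± 17.3 in siHAND2. COL1A2, COL3A1 and DCN averaged 1.66, 1.42 and 0.431 CPM in siCTR. In bulk RNA fewer cells of a type and less RNA per cell cannot be told apart, and the part of these shifts in the results below was not tested. A list of 16 cell cycle genes summed to 4324 to 4428 CPM in siCTR, 4328 to 4378 in siMYCN and 4373 to 4484 in siHAND2, ranges that overlap, but single genes were called in both directions. In siMYCN, MCM7, PLK1 and CCNB1 were lower and RRM2 higher, and in siHAND2, PLK1 was lower and RRM2, CCNE2 and PCNA higher (limma).

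Levels of different genes were compared per length, as CPM per kb of the GENCODE canonical transcript, in the 3 siCTR libraries. RAN was highest at 274 ± 3.06 CPM per kb, followed by KPNA2 at 253 ± 4.41, which is importin alpha 1, and RANBP1 at 169 ± 1.29 (mean ± SD, n = 3). Behind these stood the main carriers CSE1L (109 ± 1.48), XPO1 (104 ± 0.975), IPO5 (102 ± 1.90) and KPNB1 (97.5 ± 4.13). Among these, CSE1L lay above the rest beyond the SDs, XPO1 and IPO5 lay within their SDs of each other, and KPNB1 overlapped IPO5 within the SDs. KPNA2 was 253 against 20.2 ± 0.119 for KPNA3, the next importin alpha, and 2.15 ± 0.0586 for KPNA5, the lowest. The nucleoporins of the Y complex, inner ring, channel and basket kept within a narrower band, from 9.74 ± 0.582 (NUP37) to 44.4 ± 1.17 (SEH1L). NUP214, the large cytoplasmic nucleoporin, stood below it at 4.29 ± 0.105. NUP210L, a paralog of the membrane nucleoporin NUP210, measured 0.239 ± 0.0490 CPM in siCTR and was the only member left out by the filter on low values (1 CPM or more in 3 or more of the 9 libraries). That left 54 members for testing.

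**Figure D1:**
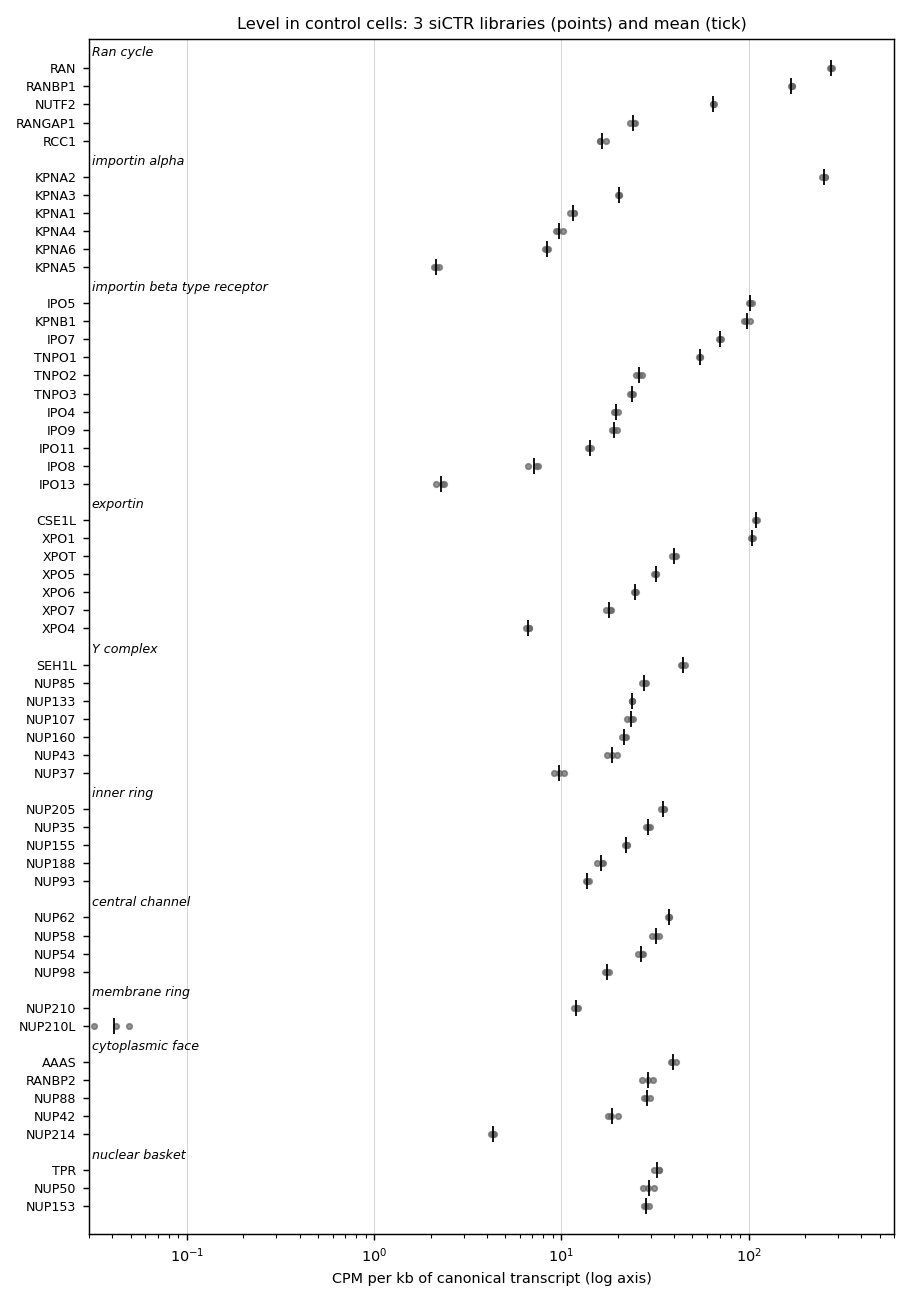
Level of the 55 members in control cells, as CPM per kb of canonical transcript on a log axis, grouped by role. Points are the 3 siCTR libraries and ticks their mean. RAN and KPNA2 lead, and NUP210L lies far below all others.

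Depletion of MYCN went with lower levels of many carriers and of part of the pore scaffold. Changes are differences of log2(CPM + 1) between group means, which hardly differ from log2 of the CPM ratio at these levels, and a call means an adjusted p under 0.05 (limma, Benjamini-Hochberg over the 14495 genes tested). Of the 54 members tested, 19 (35.2%) were lower in siMYCN and 3 were higher. Over all genes tested 11.4% were lower and 24.5% higher, 35.9% called in either direction. The median change was -0.072 over the members and 0.060 over all genes tested. The siMYCN libraries lay wholly below the siCTR libraries for 26 members and wholly above for 8, where 16.1% of all genes lay below and 33.4% above. Summed over the 55 members the level was 9323 ± 75.6 CPM in siCTR and 8664 ± 91.4 in siMYCN (SD, n = 3 libraries, not tested). With libraries rescaled by median ratios instead, 30 members were lower and 1 higher, against 16.1% lower and 16.9% higher over all genes. The 11 lower members that this rescaling added were AAAS, KPNB1, NUP54, NUP85, NUP107, NUP133, NUP153, NUP155, NUP205, XPO1 and XPO7. The intervals of the 32 uncalled members reached from -0.24 to 0.25, and no change within a member's own interval is excluded.

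**Figure D2:**
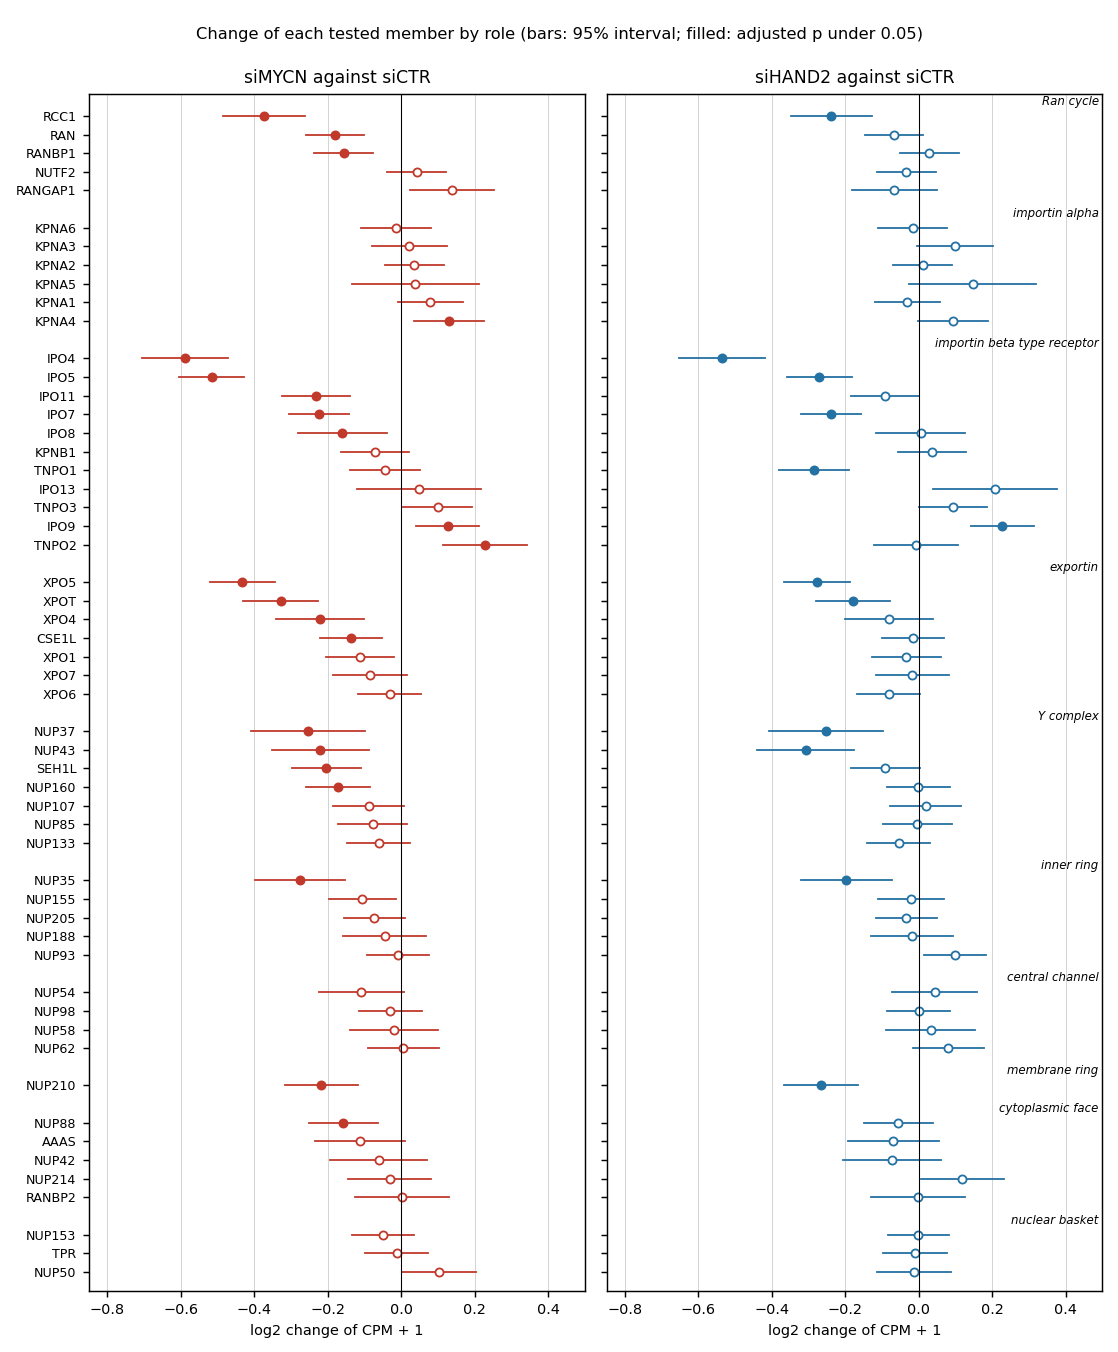
Change of each of the 54 tested members on the log2(CPM + 1) scale, siMYCN against siCTR on the left and siHAND2 against siCTR on the right, grouped by role. Points are limma estimates, bars their 95% intervals, and filled points have an adjusted p under 0.05. Both panels share the siCTR libraries. The largest falls are those of IPO4 in both panels, and the importin alpha genes lie around 0.

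In the RAN cycle, RAN itself, its co-activator RANBP1 and its exchange factor RCC1 fell in siMYCN. RAN (chr12:130872037-130877678, positions as the table lists them, which are those of GRCh38) measured 671, 679.6 and 686 CPM with siCTR, 604, 602 and 589.6 CPM with siMYCN, and 649, 635 and 660.2 CPM with siHAND2. Its siMYCN libraries all lay below its siCTR libraries, a change of -0.18 (standard error 0.037, adjusted p = 0.00127). RANBP1 (chr22:20115938-20127355) measured 205, 208 and 207 CPM with siCTR, 191, 181 and 185 CPM with siMYCN, and 211, 209 and 212 CPM with siHAND2. It was lower in all siMYCN libraries, a change of -0.16 (standard error 0.038, adjusted p = 0.00404), while the siHAND2 libraries lay slightly above siCTR.

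RCC1 (chr1:28505943-28539300) had the largest fall of the cycle. It measured 41.1, 41.1 and 43.9 CPM with siCTR, 31.7, 33.4 and 31.5 CPM with siMYCN, and 34.4, 36.8 and 35.2 CPM with siHAND2. The groups did not overlap, and the change was -0.37 (standard error 0.052, adjusted p = 4.46e-05), a fall by 23.4%. The small RNA host gene SNHG3 overlaps RCC1 on the same strand and went from 22.4 CPM to 15.9 in siMYCN and 15.9 in siHAND2. How reads shared by such genes were counted is not stated, so reads of RCC1 and SNHG3 cannot be told apart here. The small RNA genes SNORA73A and SNORA73B in the same stretch stood at 97.1 and 51.4 CPM in siCTR and 75.9 and 41.5 in siMYCN. Over all 55 members, 29 overlap another gene of the table, 27 of them one on the opposite strand.

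RANGAP1, which activates GTP hydrolysis by RAN, and NUTF2, which carries RAN back into the nucleus, were not called. RANGAP1 (chr22:41245611-41286251) measured 93.2, 88.5 and 94.8 CPM with siCTR, 106, 97.7 and 101 CPM with siMYCN, and 93.5, 89.9 and 80.7 CPM with siHAND2. All siMYCN libraries lay above siCTR, but the difference of 0.14 (standard error 0.055, adjusted p = 0.0578) missed the threshold. With replicate number as a block the adjusted p was 0.0252. NUTF2 (chr16:67846923-67872567) measured 137, 139 and 137 CPM with siCTR, 142, 142 and 141 CPM with siMYCN, and 138, 133 and 133 CPM with siHAND2, a difference of 0.042 in siMYCN (95% interval -0.039 to 0.12, adjusted p = 0.422).

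The 6 importin alpha genes, adaptors for classical localisation signals, held 1 called member in siMYCN, KPNA4, which was higher, and no lower one under any of the 3 scalings run. The shares over all genes tested were 24.5% higher and 11.4% lower. KPNA4 went from 86.9 ± 3.91 to 95.2 ± 2.65 CPM (SD, n = 3; 0.13, adjusted p = 0.0319). The small RNA gene SCARNA7 overlaps KPNA4 on the same strand and measured 318 CPM in siCTR and 369.5 in siMYCN, so reads of these genes cannot be told apart. The KPNA4 call was lost after median-ratio rescaling (0.073, adjusted p = 0.210), after quantile normalization, with no intensity trend, and without siCTR replicate 2 or 3 or siMYCN replicate 1 or 3. KPNA2 (chr17:68035708-68046854) measured 489.6, 505 and 504 CPM with siCTR, 509.7, 518 and 508 CPM with siMYCN, and 514, 488 and 509 CPM with siHAND2, so the groups were close, with a difference of 0.035 in siMYCN (95% interval -0.045 to 0.12, adjusted p = 0.504). Quantile normalization moved the KPNA2 difference to 0.085 (adjusted p = 0.0479). The differences of KPNA1, KPNA3, KPNA5 and KPNA6 ran from -0.014 to 0.079.

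Among the 11 import receptors of the importin beta type, 5 fell in siMYCN, 2 rose and 4 were not called. The shares over all genes tested were 11.4% lower and 24.5% higher. IPO4, a carrier of histones and ribosomal proteins, had the largest fall of all members (chr14:24180219-24188869). It measured 68.0, 70.2 and 66.4 CPM with siCTR, 47.8, 44.7 and 42.6 CPM with siMYCN, and 47.7, 48.8 and 43.8 CPM with siHAND2. Both knockdown groups lay wholly below siCTR and overlapped each other, and the siMYCN change was -0.59 (standard error 0.055, adjusted p = 8.36e-07), a fall by 34.0%.

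IPO5, also known for ribosomal proteins and histones, is among the most abundant carriers (chr13:97953658-98024296). It measured 612, 624 and 601 CPM with siCTR, 415, 443 and 426 CPM with siMYCN, and 499, 493 and 529.9 CPM with siHAND2. The 3 groups were fully separate, with siMYCN lowest, and the siMYCN change was -0.52 (standard error 0.042, adjusted p = 1.83e-07). A processed copy, IPO5P1, measured 20.5 ± 0.541 CPM in siCTR and 23.7 ± 1.17 in siMYCN, so reads assigned to it did not go down with IPO5. IPO7, which carries ribosomal proteins and histone H1 with KPNB1, measured 437, 435 and 426 CPM with siCTR, 365, 363 and 384 CPM with siMYCN, and 365, 359 and 374 CPM with siHAND2. Both knockdowns lay below siCTR, with a siMYCN change of -0.22 (standard error 0.039, adjusted p = 0.000302).

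IPO11 fell from 61.7 ± 1.26 to 52.4 ± 0.485 CPM (-0.23, adjusted p = 0.000603), and IPO8, a carrier of Argonaute proteins, from 37.2 ± 2.23 to 33.2 ± 1.75 CPM (-0.16, adjusted p = 0.0375; SD, n = 3). The IPO8 call was lost with no intensity trend, with no filter on low values and without siCTR replicate 1 or 2 or siMYCN replicate 3. IPO11 overlaps KIF2A on the same strand, which stood at 158 CPM in siCTR and 162 in siMYCN.

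TNPO2, a transportin for cargo with a proline-tyrosine signal such as RNA-binding proteins, and IPO9, a carrier of histones H2A and H2B, rose. TNPO2 (chr19:12699194-12724011) measured 135, 127 and 131 CPM with siCTR, 159, 146 and 156 CPM with siMYCN, and 134, 139 and 119 CPM with siHAND2. The siMYCN libraries lay above all others, a rise of 0.23 (standard error 0.054, adjusted p = 0.00369). IPO9 (chr1:201829149-201884291) measured 217, 213 and 227 CPM with siCTR, 246, 231 and 241 CPM with siMYCN, and 261, 255 and 254 CPM with siHAND2. Its rise of 0.13 (standard error 0.041, adjusted p = 0.0234) in siMYCN was lost after median-ratio rescaling (0.069, adjusted p = 0.201), after quantile normalization, with no intensity trend, and without siCTR replicate 1 or 2 or siMYCN replicate 1 or 3.

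KPNB1, the receptor that works with importin alpha, was not called. It measured 619, 583 and 571 CPM with siCTR, 579.8, 541 and 565 CPM with siMYCN, and 622, 602 and 593 CPM with siHAND2 (chr17:47649476-47685505). The siMYCN and siCTR libraries overlapped, with a difference of -0.071 (95% interval -0.16 to 0.020, adjusted p = 0.217), and median-ratio rescaling gave -0.13, adjusted p = 0.0331. TNPO1 (-0.045), IPO13 (0.049) and TNPO3, a carrier of SR splicing proteins (0.10), were not called in siMYCN either.

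All 7 exportins had negative differences in siMYCN, and 4 of them passed the threshold. Differences were negative for 40 of the 54 members tested, and 11.4% of all genes tested were lower. XPO5, which exports microRNA precursors, fell most (chr6:43522334-43576038). It measured 171, 167 and 170.4 CPM with siCTR, 127, 121 and 127 CPM with siMYCN, and 139, 145 and 134 CPM with siHAND2. The groups were fully separate, with a siMYCN change of -0.43 (standard error 0.042, adjusted p = 1.21e-06), a fall by 26.0%. XPO5 overlaps POLR1C on the opposite strand, at 19.6 CPM in siCTR and 16.1 in siMYCN.

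XPOT, the exporter of transfer RNA, followed (chr12:64404392-64451125). It measured 258, 248 and 259.9 CPM with siCTR, 205, 195 and 209.7 CPM with siMYCN, and 216, 219 and 242 CPM with siHAND2, lower in each siMYCN library than in any siCTR library. The change was -0.33 (standard error 0.048, adjusted p = 6.17e-05). XPO4, which exports the translation factor EIF5A, went from 65.2 ± 1.46 to 55.8 ± 1.12 CPM (-0.22, adjusted p = 0.00613; SD, n = 3).

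CSE1L, which recycles importin alpha, measured 388, 394 and 383 CPM with siCTR, 343, 358 and 359 CPM with siMYCN, and 382, 372 and 399.7 CPM with siHAND2 (chr20:49046246-49096960). The siMYCN libraries were the lowest, with a change of -0.14 (standard error 0.040, adjusted p = 0.0131). That call was lost without siCTR replicate 2 or siMYCN replicate 1. XPO1, the receptor for leucine-rich export signals, measured 524, 516 and 515 CPM with siCTR, 466, 489 and 485 CPM with siMYCN, and 493, 488 and 541 CPM with siHAND2 (chr2:61477849-61538626). The siMYCN libraries all lay below siCTR, yet the difference of -0.11 (standard error 0.044, adjusted p = 0.0581) missed the threshold. It passed with replicate number as a block (adjusted p = 0.0321) and after median-ratio rescaling (-0.17, adjusted p = 0.00510). XPO6, for actin with profilin (-0.032), and XPO7 (-0.085) were not called.

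**Figure D3:**
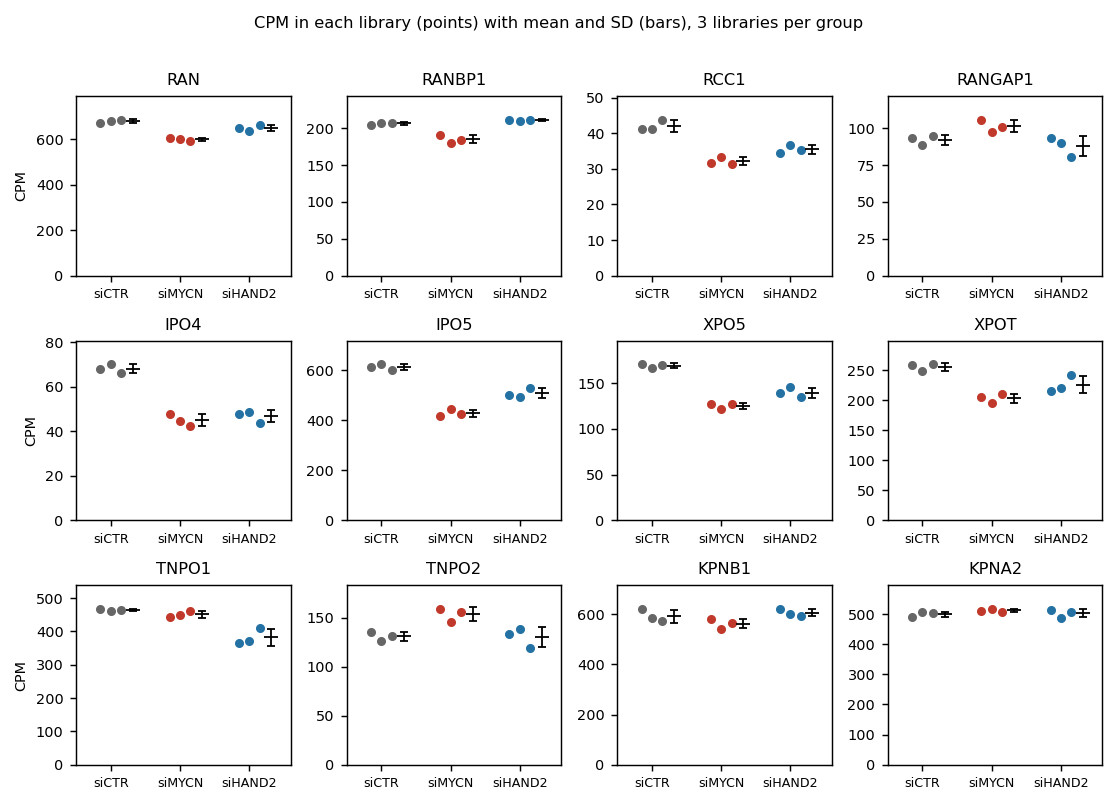
CPM in each of the 9 libraries for 12 members, with axes starting at 0. Points are libraries, horizontal ticks and bars the mean and SD of each group. IPO4, IPO5, XPO5, XPOT and RCC1 are lower in both knockdowns, RAN and RANBP1 are called as lower in siMYCN only, TNPO1 is lower in siHAND2, and KPNA2 hardly moves.

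Of the 7 Y complex genes, which form the outer scaffold, 4 fell in siMYCN and all 7 differences were negative. Here too, 40 of the 54 members had negative differences and 11.4% of all genes tested were lower. NUP37 went from 23.0 ± 1.37 to 19.1 ± 1.19 CPM (-0.25, adjusted p = 0.0124), NUP43 from 71.6 ± 4.16 to 61.3 ± 1.63 (-0.22, adjusted p = 0.0112), SEH1L from 82.2 ± 2.17 to 71.2 ± 0.642 (-0.20, adjusted p = 0.00207) and NUP160 from 113 ± 2.90 to 100.3 ± 2.46 (-0.17, adjusted p = 0.00356; SD, n = 3 libraries each). NUP37, NUP43 and SEH1L are the small propeller proteins of the complex. The NUP37 call was lost without siCTR replicate 3 or siMYCN replicate 1, and the NUP43 call without siCTR replicate 3. NUP107, NUP133 and NUP85, the other scaffold subunits, differed by -0.089 to -0.061 and were not called.

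In the inner ring 1 of 5 genes fell in siMYCN, where 11.4% of all genes tested were lower. NUP35, which ties the ring to the membrane, ranged from 43.5 to 46.0 CPM with siCTR, 35.8 to 37.6 with siMYCN and 36.8 to 42.7 with siHAND2 (chr2:183117513-183161680). The libraries of both knockdowns lay below siCTR, with a siMYCN change of -0.28 (standard error 0.058, adjusted p = 0.00158). NUP93, NUP155, NUP188 and NUP205 differed by -0.11 to -0.0089 and were not called, although NUP155 passed with replicate number as a block (adjusted p = 0.0303). NUP210, the membrane ring glycoprotein, measured 87.6, 88.3 and 84.0 CPM with siCTR, 79.0, 73.0 and 71.3 CPM with siMYCN, and 72.1, 72.8 and 70.6 CPM with siHAND2 (chr3:13316235-13420322). Both knockdowns lay below siCTR, with a siMYCN change of -0.22 (standard error 0.047, adjusted p = 0.00189).

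No channel or basket gene was called in siMYCN (limma). Of these 7, 1 gene, NUP50, had an unadjusted p under 0.05. Over all genes tested, 35.9% were called in siMYCN, 24.5% higher and 11.4% lower. Median-ratio rescaling brought NUP54 and NUP153 past the threshold as lower. NUP98, whose gene also encodes the scaffold protein NUP96, measured 118, 115 and 120.3 CPM with siCTR, 117, 116 and 114 CPM with siMYCN, and 117, 115 and 121 CPM with siHAND2 (chr11:3671083-3797792), and the groups overlapped (difference -0.029, 95% interval -0.11 to 0.056, adjusted p = 0.609). TPR, the basket filament, measured 319.8, 301 and 318 CPM with siCTR, 309, 302 and 319.7 CPM with siMYCN, and 306, 307 and 319.8 CPM with siHAND2 (chr1:186311652-186375693), again with overlapping groups (-0.012, 95% interval -0.10 to 0.074, adjusted p = 0.847). The channel genes NUP54, NUP58 and NUP62 differed by -0.11, -0.020 and 0.0053, and the basket genes NUP50 and NUP153 by 0.10 and -0.049.

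On the cytoplasmic face 1 of 5 genes fell in siMYCN, where 11.4% of all genes tested were lower. NUP88 fell from 103 ± 4.01 to 92.6 ± 2.43 CPM (-0.16, adjusted p = 0.0114, limma), a call lost without siCTR replicate 3 or siMYCN replicate 1. Its partner NUP214, AAAS and NUP42 differed by -0.031, -0.11 and -0.062 and were not called. RANBP2, which holds RANGAP1 at the pore, differed by 0.0030 (adjusted p = 0.977). RANBP2 shares most of its sequence with the RGPD genes, of which 7 are listed with a summed 69.8 ± 5.61 CPM in siCTR, so its reads cannot be assigned with certainty.

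Depletion of HAND2 went with fewer called changes among the members, again mostly falls. Of the 54 tested, 11 (20.4%) were lower in siHAND2 and 1 was higher, where 11.8% of all genes tested were lower and 18.1% higher (29.9% called in all). After median-ratio rescaling 15 members were lower and 1 higher, with 15.5% of all genes lower and 13.8% higher. The siHAND2 libraries lay wholly below siCTR for 14 members and wholly above for 7, against 16.6% and 25.8% of all genes. The median change was -0.018 over the members and 0.039 over all genes. The members together measured 8949 ± 160.4 CPM (SD, n = 3), between the sums in siCTR and siMYCN. The comparison uses the same siCTR libraries as the one above, so the values of each are given side by side and their likeness is not read as support.

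The import receptors again held the largest fall. IPO4 changed by -0.54 (standard error 0.055, adjusted p = 1.63e-06) in siHAND2 beside -0.59 in siMYCN. IPO5 changed by -0.27 (standard error 0.042, adjusted p = 0.000121) beside -0.52, and IPO7 by -0.24 (standard error 0.039, adjusted p = 0.000188) beside -0.22. TNPO1, the classical transportin for RNA-binding proteins, fell in siHAND2 (chr5:72816312-72916733). It measured 468, 462 and 465 CPM with siCTR, 443, 449 and 461 CPM with siMYCN, and 365, 370.3 and 411 CPM with siHAND2, with the siHAND2 libraries below all 6 others. Its change was -0.29 (standard error 0.045, adjusted p = 0.000164) beside -0.045 in siMYCN. IPO9 was the sole member called as higher, by 0.23 (standard error 0.041, adjusted p = 0.000495). TNPO2 differed by -0.0083 (95% interval -0.12 to 0.11, adjusted p = 0.924), and KPNB1 by 0.036 (95% interval -0.056 to 0.13, adjusted p = 0.574).

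Among the exportins, XPO5 changed by -0.28 (standard error 0.042, adjusted p = 0.000108) and XPOT by -0.18 (standard error 0.048, adjusted p = 0.00932). XPO5 fell by 17.6% and XPOT fell by 11.6%. CSE1L, XPO1, XPO4, XPO6 and XPO7 differed by -0.082 to -0.015 and were not called. In the RAN cycle RCC1 was the one gene called, with a change of -0.24 (standard error 0.052, adjusted p = 0.00263). RAN differed by -0.067 (95% interval -0.15 to 0.012, adjusted p = 0.193), although its siHAND2 libraries all lay below siCTR, and median-ratio rescaling brought it past the threshold (-0.11, adjusted p = 0.0368). RANBP1 differed by 0.028 (95% interval -0.052 to 0.11, adjusted p = 0.612), RANGAP1 by -0.067 and NUTF2 by -0.033.

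Among the nucleoporins, 4 fell in siHAND2, where 11.8% of all genes tested were lower. They were 2 of 7 in the Y complex, 1 of 5 in the inner ring and the 1 tested in the membrane ring. NUP43, a propeller protein of the Y complex, measured 71.6, 67.5 and 75.8 CPM with siCTR, 61.1, 59.7 and 63.0 CPM with siMYCN, and 52.4, 57.6 and 63.3 CPM with siHAND2 (chr6:149724315-149749665). The siHAND2 values spread widely but stayed below siCTR, with a change of -0.31 (standard error 0.062, adjusted p = 0.00135). NUP210 changed by -0.27 (standard error 0.047, adjusted p = 0.000437), NUP37 by -0.25 (standard error 0.073, adjusted p = 0.0153) and NUP35 by -0.20 (standard error 0.058, adjusted p = 0.0172). The NUP35 call was lost without siCTR replicate 2 or 3 or siHAND2 replicate 1 or 2, and the NUP37 call without siCTR replicate 3 or siHAND2 replicate 2.

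None of the 6 importin alpha, 4 channel, 5 cytoplasmic face or 3 basket genes was called in siHAND2 (limma). Of these 18, NUP214 alone had an unadjusted p under 0.05. Over all genes tested, 29.9% were called in siHAND2, 18.1% higher and 11.8% lower. KPNA2 differed by 0.011, NUP98 by -0.00045 and TPR by -0.010. NUP93 of the inner ring, at 113 ± 1.60 CPM in siCTR and 121 ± 1.98 in siHAND2, missed the threshold (0.10, adjusted p = 0.0694) and passed it with replicate number as a block (adjusted p = 0.0491).

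Whether the knockdowns differed from each other was tested by setting siHAND2 against siMYCN, with siCTR adding only to the estimate of spread. Of the 54 members, 11 (20.4%) were higher in siHAND2 than in siMYCN and 3 were lower, against 11.4% higher and 15.5% lower over all genes tested (26.9% called). The siHAND2 libraries lay wholly above siMYCN for 21 members and wholly below for 6, against 17.1% and 21.6% of all genes. The median difference was 0.070 over the members and -0.0063 over all genes. Both this comparison and that of siMYCN with siCTR use the siMYCN libraries, so their calls are not independent.

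**Figure D4:**
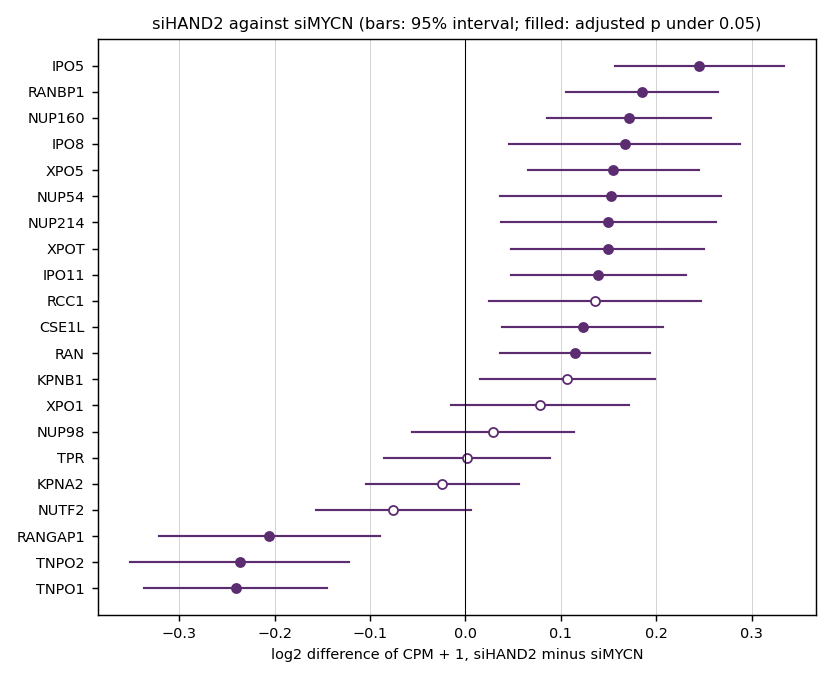
Difference of siHAND2 minus siMYCN on the log2(CPM + 1) scale for the 14 called members and 7 further named members. Points are limma estimates, bars their 95% intervals, filled points have an adjusted p under 0.05. IPO5 and RANBP1 lie farthest to the right, TNPO1, TNPO2 and RANGAP1 to the left.

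IPO5 differed most on the higher side, by 0.25 (standard error 0.042, adjusted p = 0.000306), followed by RANBP1 at 0.19 (standard error 0.038, adjusted p = 0.00146). For RANBP1 the siHAND2 libraries, 209 to 212 CPM, all exceeded the siMYCN libraries, 181 to 191 CPM. NUP160 measured 109.8, 115 and 115 CPM with siCTR, 97.7, 101 and 103 CPM with siMYCN, and 113, 113 and 113 CPM with siHAND2 (chr11:47778087-47848555). It stood level with siCTR in siHAND2 and above siMYCN, with a difference of 0.17 (standard error 0.041, adjusted p = 0.00469). XPO5 (0.16, adjusted p = 0.0115), XPOT (0.15, adjusted p = 0.0285) and IPO11 (0.14, adjusted p = 0.0252) were higher as well.

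CSE1L (0.12, adjusted p = 0.0309), RAN (0.11, adjusted p = 0.031), IPO8 (0.17, adjusted p = 0.0402), NUP214 (0.15, adjusted p = 0.0467) and NUP54 (0.15, adjusted p = 0.0494) lay closer to the threshold. IPO8 measured 38.2, 38.8 and 34.7 CPM with siCTR, 34.4, 34.1 and 31.2 CPM with siMYCN, and 37.2, 37.8 and 37.1 CPM with siHAND2 (chr12:30628988-30695869), and NUP54, a channel nucleoporin, measured 61.6, 60.8 and 57.7 CPM with siCTR, 55.5, 59.1 and 52.3 CPM with siMYCN, and 59.6, 60.7 and 65.5 CPM with siHAND2 (chr4:76114659-76148444). In each of them the siHAND2 libraries lay above the siMYCN libraries. Of the 14 calls only those of IPO5, NUP160, RANBP1, TNPO1 and TNPO2 held in all 9 fits that left out 1 library and under all 10 other settings. NUP214 kept its call in 1 of those 9 fits, NUP54 in 2, IPO8 in 3, RAN in 4, IPO11 and XPOT in 6, CSE1L and XPO5 in 7 and RANGAP1 in 8. The count of higher members was 5 without siMYCN replicate 1, 6 without siMYCN replicate 2 or 3 or siHAND2 replicate 3, and 7 without siHAND2 replicate 2. The XPO5 call was lost without siMYCN replicate 2 or siHAND2 replicate 2, that of CSE1L without siMYCN replicate 1 or siHAND2 replicate 3. Fitting these 6 libraries alone left 4 members higher and 3 lower.

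On the lower side, TNPO1 differed by -0.24 (standard error 0.045, adjusted p = 0.000737), with siHAND2 at 382 ± 25.5 and siMYCN at 451 ± 9.25 CPM (SD, n = 3). TNPO2 differed by -0.24 (standard error 0.054, adjusted p = 0.00363) and RANGAP1 by -0.21 (standard error 0.055, adjusted p = 0.00998). For TNPO1 it was siHAND2 that departed from siCTR, and for TNPO2 siMYCN. The RANGAP1 call was lost without siMYCN replicate 1. The members called as lower in both knockdowns with no called difference between them were IPO4 (0.053, 95% interval -0.064 to 0.17), IPO7, NUP35, NUP37, NUP43, NUP210 and RCC1, where a missed threshold does not show equal levels. For RCC1 the difference was 0.14 (95% interval 0.025 to 0.25, adjusted p = 0.0666, limma), with the siHAND2 libraries wholly above siMYCN. RCC1 was called as higher after median-ratio rescaling (adjusted p = 0.0390) and quantile normalization (adjusted p = 0.0360).

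Transport genes outside the symbol rule were taken from further lists. Of 8 other pore components in the table, 2 were lower in siMYCN and 1 in siHAND2, with none higher (0 also at an unadjusted p under 0.05, limma), and the list's median change was -0.078 and -0.024. The membrane nucleoporin NDC1 was lower in both, at 185 ± 4.92 CPM in siCTR, 168 ± 1.33 in siMYCN (-0.14, adjusted p = 0.0355) and 149 ± 12.1 in siHAND2 (-0.31, adjusted p = 0.000179). POM121C fell in siMYCN (-0.18, adjusted p = 0.0395) and has a near-identical copy in POM121. Over all genes tested, 11.4% were lower in siMYCN and 11.8% in siHAND2, so the single lower gene in siHAND2 is near that share. Of 8 transport cofactors, 3 were higher and 1 lower in each knockdown, with a median change of 0.069 in siMYCN and 0.059 in siHAND2. The medians over all genes tested were 0.060 and 0.039, with 24.5% and 18.1% higher. NMD3, the adaptor of the large ribosomal subunit for XPO1, fell in siMYCN (-0.18, adjusted p = 0.00523), and RANBP6, a relative of IPO5, rose (0.19, adjusted p = 0.00791). The snRNA export adaptor PHAX (0.17, adjusted p = 0.0122) and the snRNP import adaptor SNUPN (0.22, adjusted p = 0.0333) rose too. In siHAND2, RANBP17, an exportin relative, rose (0.29, adjusted p = 0.00257) and RANGRF, which acts on nucleotide release by RAN, fell (-0.30, adjusted p = 0.00322). RANBP6 (0.21, adjusted p = 0.00595) and SNUPN (0.22, adjusted p = 0.0377) were again higher.

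Of 17 genes for bulk messenger RNA export, which runs without RAN, 3 were lower and none higher in siMYCN (limma). At an unadjusted p under 0.05, 0 were higher and 4 lower there. In siHAND2, 2 were lower and 2 higher. Of all genes tested, 11.4% were lower and 24.5% higher in siMYCN, and 11.8% lower and 18.1% higher in siHAND2. The counts in siHAND2 are thus near or under those shares. The lower genes in siMYCN included THOC3 of the THO complex (-0.23, adjusted p = 0.00253) and NXT2, a partner of the export receptor NXF1 (-0.36, adjusted p = 0.00320). The other was PCID2 (-0.18, adjusted p = 0.0395), whose siMYCN and siCTR libraries overlapped. In siHAND2 the helicase gene DDX39A (-0.19, adjusted p = 0.00588) and THOC3 (-0.20, adjusted p = 0.00674) had the smallest p. DDX39B (0.14, adjusted p = 0.0222) and THOC1 (0.23, adjusted p = 0.0134) were the higher ones. The median change of the 17 was -0.0057 in siMYCN and -0.012 in siHAND2.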

How the data were processed

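Total RNA sequencing of 9 LAN5 libraries was analysed, 3 each with siCTR, siMYCN_2 and siHAND2_3, grouped by their labels. The authors deposited 1 table of CPM (a gene's counts scaled to the library total), which sums to nearly the same total in every library, and whose lowest value in the deposited table is 0.0001 CPM. The submitters' processing notes name STAR 2.5.1, Partek and the build hg19 (GRCh37), without a role for each; the counting of shared or antisense reads is not given in the sources used here. The positions in the deposited table are nevertheless those of GRCh38: all 55 members lay on the same chromosome as in RefSeq's GRCh38.p14 and 53 started within 5000 bp of it.

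CPM carries no count model, and at most 81.2% of low values were whole multiples of the smallest step within 0.02 of a step, under the 95% set as the minimum, so counts were not rebuilt. The 14495 of 25084 genes that reached 1 CPM in 3 or more libraries were tested with limma 3.58.1 in R 4.3.3 on log2(CPM + 1): 1 linear model of all 9 libraries, intensity trend, two-sided, Benjamini-Hochberg over all genes tested, threshold 0.05. The script was tested on simulated data.

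The members and lists were chosen with earlier results of these data known. Named members were RAN, RANBP1, RANGAP1, RCC1, NUTF2, KPNB1, KPNA2, XPO1, CSE1L, NUP98 and TPR, plus the 6 strongest called rises and falls of each comparison; other members were added to describe their roles. For the other lists, the 2 called genes with the smallest p in each comparison with siCTR were named, or fewer where fewer were called. Further genes were named beside them, and calls of these lists in siHAND2 against siMYCN were not described. Replicate numbers appear in the labels of all groups. Deviations of same-numbered libraries from their group means correlated at 0.208, 0.102 and 0.215 (siMYCN with siCTR) and 0.154, 0.121 and 0.266 (siHAND2 with siCTR), so results with replicate number as a block are given beside these comparisons where a call changes. The pairing comes from the data, since the labels do not explain the numbers. Alternatives were pseudocounts of 0.1 and 5, no filter and a filter of 5 CPM, median-ratio and quantile scaling, 2-group fits, no intensity trend, precision weights, the block, and leaving out each library.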

Additional observations from a re-analysis of the deposited data

How the results depend on the processing

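No member called in the main analysis changed sign under any of the 10 settings or the 9 fits that left out 1 library. In siMYCN, 15 of the 22 calls were kept in all of them; in siHAND2, 10 of 12; between the knockdowns, 5 of 14. Members higher in siMYCN (3) were 1 after median-ratio rescaling, 1 with no intensity trend, and 1 to 5 with a library left out, lowest without siCTR replicate 2, siMYCN replicate 1 or siMYCN replicate 3 and highest without siHAND2 replicate 3. Members lower in siMYCN (19) were 30 after median-ratio rescaling. Members higher in siHAND2 (1) were 2 with no intensity trend, 2 with the replicate block, and 1 to 3 with a library left out, 3 without siHAND2 replicate 3. Between siHAND2 and siMYCN, the 11 higher members were 6 with no filter on low values, 19 after median-ratio rescaling, 19 after quantile normalization, 4 with only the 2 groups fitted, 5 with no intensity trend, and 5 to 11 with a library left out, lowest without siMYCN replicate 1. The 14 called there were 9, 22, 22, 7 and 8 under the same settings in that order, and 7 to 14 with a library left out. The cause of these differences was not tested, except that the 2-group fit uses fewer samples and no filter adds tests. For the 3 members lower in siHAND2 than in siMYCN, the replicate block gave 5, adding KPNA1 and NUP50. It gave 15 higher, adding IPO9, KPNB1, NUP93 and XPO4. Same-numbered libraries of these groups correlated at 0.434, -0.129 and 0.245, positive for numbers 1 and 3 and negative for number 2. Taking all group pairs, a library's best match was its own number in 14 of 18 cases. What a shared number means is not stated in the labels. Against siCTR the block added NUP155, RANGAP1 and XPO1 in siMYCN and NUP93 in siHAND2 and changed no other call. Depth is known only from the CPM step, and 3 libraries a group limit the precision.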
